A study of Homo sapiens with 12 samples.

Results

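Peaks to which the peak caller MACS2 gave more than 1 summit, in RNA enriched with an anti-m1G antibody, were examined in human PANC-1 cells. PANC-1 is an established cell line derived from a pancreatic ductal adenocarcinoma. The deposited MACS2 list holds 3705 summits, the single bases at which enrichment was highest, under 3456 peak numbers. Summits whose name ends in a lower-case letter share their peak number with others, and there were 449 of them (12.1% of all summits, 95% Wilson interval 11.1 to 13.2) in 200 peaks (5.79% of peak numbers). Polyadenylated RNA was broken into fragments of 100 to 200 bases and either precipitated with the anti-m1G antibody (IP) or sequenced directly as input, from cells labelled WT control and from cells transfected with siRNA and depleted of TRMT5 for 4 days. The 12 libraries, all of experiment 2, form 4 groups of 3: input WT control, m1G IP WT control, input TRMT5 KD and m1G IP TRMT5 KD. The siRNA of the control cells is not named in the labels, and the depletion is transient and was made in 1 cell line. The peak lists hold no value per library, so no comparison of knockdown with control and no spread between replicates can be given, and the read depth is unknown.

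m1G is guanosine with a methyl group on its N1 atom, which lies on the face of the base used for pairing. TRMT5 places it in tRNAs, directly 3′ of the anticodon, where it helps to keep the reading frame during translation. MACS2 marks stretches in which reads pile up more in the IP than in the control. It can give 1 stretch several summits, which keep the same number and receive letters. Such a peak therefore holds several local maxima of the pile-up. They need not be separate places of enrichment, since some neighbouring summits lay closer than a fragment is long, down to 51 bases. The summit list gives no peak widths, and 4 peaks had summits in different single genes. The value given per summit is the authors', −log10 of a q-value (a p-value corrected for the number of places tested), and it measures significance, which grows with read number as well as with enrichment.

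The members were chosen by the numbering of the peak caller, which rests on the same read pile-up as the position and the value of every summit. Differences between them and the 3256 summits with a peak number of their own are therefore descriptions, with no test. The shares carry 95% Wilson intervals, which cover counting error only.

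At a few of the peaks a lettered summit lay at or just before an annotated gene start, and these show the sequence at a summit. RefSeq (GRCh38.p14) sequences of 300 bases around gene starts held 14 of the 449 summits (3.12%, 1.87 to 5.17), against 323 of 3256 for summits with a number of their own (9.92%). In the stretches of 30 bases below, written 5′ to 3′ on the strand of the named gene, the capital marks the base of the summit. They show summits on both sides of the start, from 43 bases inside CCDC85B to 27 bases before ADCY3.
CCDC85B (chr11:65890693-65890722, plus strand): gccggagcccgagcctgagtggcGccgggc
SOX12 (chr20:325556-325585, plus strand): aaaggcgtcggcggcCgggcggggagcggc
FMNL2 (chr2:152335176-152335205, plus strand): ctgctccaggtgctaGccaggcaggcgcag
MYBBP1A (chr17:4555357-4555386, minus strand): ctgacctggaagcgGctggggccggagcac
LRFN4 (chr11:66857076-66857105, plus strand): ccgctcgcctgtcgcCgccgccaccgctaa
AKT2 (chr19:40285338-40285367, minus strand): gggagggggcggggGgggccgcgccgtgct
ADCY3 (chr2:24920249-24920278, minus strand): cgcccgcctcccgcCtcccgcctcccgcct
PRELID1 (chr5:177303762-177303791, plus strand): gaagcggtggctactGtgtggctgcgccgg

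The guanine content of these stretches differed widely. AKT2, a serine/threonine kinase of the insulin and growth factor pathway, had 20 guanines of 30, and the transcription factor gene SOX12 had 17. CCDC85B and PRELID1 had 14 each, the nucleolar protein gene MYBBP1A 13, the formin FMNL2 11, LRFN4 7 and the adenylyl cyclase ADCY3 5. The ADCY3 summit also lay 80 bases before the start of LOC124907742 on the other strand, where the stretch had 21. The stretches were picked for their nearness to a start after the values were seen, and over all start windows that held any of the 14 summits the number ran from 5 to 21. Over all 35116 start windows of the table, guanine made up 29.2% of bases. The summits of CCDC85B, SOX12, FMNL2 and MYBBP1A lay 43, 19, 17 and 12 bases after the start of their gene, with −log10 q of 53.0, 13.3, 10.0 and 7.34. Those of AKT2, PRELID1 and ADCY3 lay 8, 22 and 27 bases before it, outside the gene span, with 30.4, 48.7 and 5.77. The PRELID1 summit also lay 58 bases before the start of RAB24 on the other strand, where the stretch had 7 guanines. The LRFN4 summit lay within PC as well, so neither the PRELID1 nor the LRFN4 summit can be given to 1 gene. A capital marks where the pile-up was highest and not a modified base. Summits as a whole were displaced to the 5′ side of genes, as described below. A stretch therefore need not be the RNA that was enriched, and one before a start may lie outside the transcript. The guanine counts describe the genome at the summit and not the enriched RNA.

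Most of the peaks had few summits. Of the 200 peaks, 173 had 2 summits, 19 had 3, 4 had 4, 2 had 5, and 1 each had 7 and 13. Neighbouring summits of a peak were a median of 378 bases apart (median interval 359 to 406, n = 249 pairs), with a range from 51 to 1217 bases. A distance of 300 to under 400 bases was by far the most common, at 102 of 249 pairs (41.0%, 35.0 to 47.2). Another 8 pairs lay closer than 200 bases, 27 at 200 to under 300, 71 at 400 to under 600 and 41 at 600 or more. Every summit name holds the text 300bp, which no source used here explains.

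**Figure D1:**
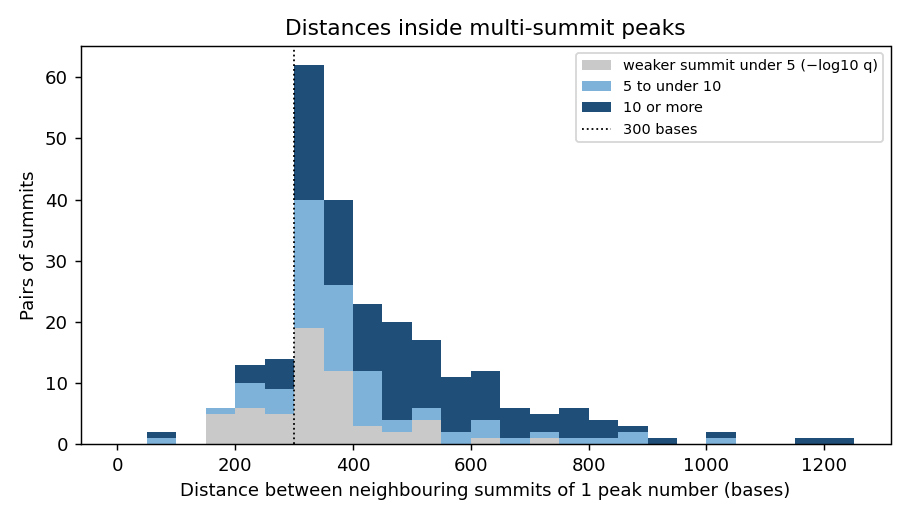
Number of pairs of neighbouring summits (vertical axis) by their distance in bases (horizontal axis, steps of 50), stacked by the −log10 q of the weaker summit of the pair; the dotted line marks 300 bases. The pairs rise steeply at 300 bases, and pairs with a weaker summit of 10 or more reach farther out, with a median of 461 bases.

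Distance went together with strength. Where the weaker summit had −log10 q under 5, the median distance was 336 bases (311 to 354, n = 58 pairs). At 5 to under 10 it was 361 (346 to 383, n = 70), and at 10 or more it was 461 (419 to 494, n = 121). Pairs in which the weaker summit had 10 or more thus lay farther apart than pairs with a faint partner. The distances and the values come from the same pile-up that gave the summits a shared number, so this is a description with no test. Pairs of the same peak are also not independent. Most mitochondrial pairs, with a median of 589 bases (n = 19), had a weaker summit of 10 or more. The medians by class were not computed without them. In at least 28 of 249 pairs (11.2%) a gap between exon blocks of the second deposited list, MetDiff, lay between the summits. The longest gap of each such pair had a median length of 98.5 bases and at most 255. Introns could be seen only where that list has a peak of several blocks, and 68 of the 200 peaks touched none of its blocks. Taking off the longest gap of each pair, and no further one, gave a median distance of 366 bases. Neighbouring summits with different numbers in 1 gene lay at least 259 bases apart, with a median of 2215 (n = 1199), and 42 of them lay within 500 bases, so the distances of both kinds overlap.

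The widest and the narrowest distances fell in genes of different kinds. Among peaks in 1 gene, FADS2, a fatty acid desaturase, had the widest step, 1193 bases, between summits of 41.1 and 31.2. PLEC, which encodes the cytolinker plectin, followed with 1047, the stearoyl-CoA desaturase SCD with 898, and VWA1, a matrix protein, had 820. The narrowest step was in PKD1, the polycystin-1 gene, with 51 bases between summits of 6.62 and 5.53. Because PKD1 has several near-identical pseudogene copies, the place of its reads is uncertain. ACTB, the beta-actin gene, came next with 93 bases, then MAST2 with 150, and NACA and RRAS with 160 each. The 2 summits of MAST2 had values of only 1.55 and 1.55, those of NACA 1.69 and 1.35, and those of RRAS, whose strand is not known here, 3.52 and 2.36, close to the lowest value of the whole list, 1.35.

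The strongest peaks in single genes mostly had 2 summits, given from 5′ to 3′ here and below. In VWA1 (chromosome 1, plus strand) the summits at 1439274 and 1440094 had −log10 q of 68.6 and 131, the second being the highest of all lettered summits. PLEKHG2, which encodes a guanine nucleotide exchange factor, had 4 summits of 15.1, 94.5, 12.4 and 5.78 within 1640 bases, so that 1 summit stood far above its neighbours. APOE, the apolipoprotein E gene, had 93.8 and 56.1 at a distance of 452 bases. PSAP, the precursor of the lysosomal saposins, had 40.7 and 83.7 at 801 bases. The tetraspanin CD151 had 35.9 and 57.0, MGAT2, a Golgi enzyme of N-glycan synthesis, 56.4 and 25.2, and TRIM28, a transcriptional corepressor, 30.8 and 55.4. The amino acid transporter SLC7A5 had 13.6 and 54.6, the collagen COL18A1 5.85 and 54.0, the enoyl-CoA hydratase family member ECH1 53.2 and 29.6, and the glycolytic enzyme ENO1 52.3 and 6.35. In COL18A1 and ENO1 the weaker summit was thus far below its partner, whereas in VWA1, APOE and CD151 both summits were among the strong ones of the list.

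Over all 200 peaks the strongest summit exceeded the weakest by a median ratio of 1.92 in −log10 q (1.68 to 2.15). The ratio was under 1.5 in 60 peaks and at least 5 in 25. It was largest in an AKT2 peak with summits of 1.68 and 70.8, at 42.2. As a ratio of −log10 q it compares significance and not the amount of RNA bound. Members had a median −log10 q of 14.4 (12.5 to 15.8) and summits with a number of their own 13.6 (13.3 to 14.1). The members spread more widely: 30 of 449 reached 50 or more (6.68%, 4.72 to 9.38), where the share over all summits was 3.83%, and their lower quartile was 7.04 against 8.84. The lettered summits of 50 or more include every one in the mitochondrial rRNAs and some in mitochondrial mRNAs. Of the 23 mitochondrial summits, 22 were lettered, and the share was not computed without them.

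Among the 27 peaks of 3 or more summits, 21 lay in 1 gene of known strand. PLEC had a peak of 5 summits over 2786 bases, with 26.5, 51.7, 37.8, 33.9 and 64.4 from 5′ to 3′. SCD had 5 over 2145 bases, with 43.6, 16.5, 37.3, 7.46 and 9.22 from 5′ to 3′. In PLEC every one of the summits was above 26, while in SCD the 2 summits nearest the 3′ end were the weakest. NES, the nestin gene that the title of the study names, had 4 summits over 1696 bases near its 3′ end, with 17.6, 17.5, 21.4 and 39.98 from 5′ to 3′, and a second peak of 15.8 and 31.0 near its 5′ end. ACTB had 38.4, 29.0, 23.4 and 28.5 from 5′ to 3′, and TTYH3, a member of the tweety family of membrane proteins, 11.9, 11.8, 9.48 and 9.15. The values of TTYH3 were nearly level, and those of NES were highest towards the 3′ end.

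Among peaks of 3 summits, GAPDH, a glycolytic enzyme, had 13.2, 42.6 and 50.9 from 5′ to 3′. The gamma-actin gene ACTG1 had 27.9, 46.3 and 36.3, the ribosomal protein gene RPS16 5.70, 40.9 and 42.6, and the elongation factor EEF1A1 28.7, 15.5 and 20.4. The giant scaffold protein AHNAK had 35.8, 13.9 and 21.2, the beta-tubulin TUBB 28.9, 17.5 and 28.5, and the adhesion molecule MCAM 18.9, 36.5 and 8.06. NEAT1, the RNA scaffold of nuclear paraspeckles, had 30.5, 20.9 and 4.91, and CCDC85B 53.0, 22.3 and 6.73. GAPDH and RPS16 were thus strongest at the 3′ summit, NEAT1 and CCDC85B at the 5′ summit, and ACTG1 and MCAM in the middle. ACTB, ACTG1, GAPDH, RPS16, EEF1A1 and TUBB have processed pseudogenes or close paralogs, so reads may be shared between copies.

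**Figure D2:**
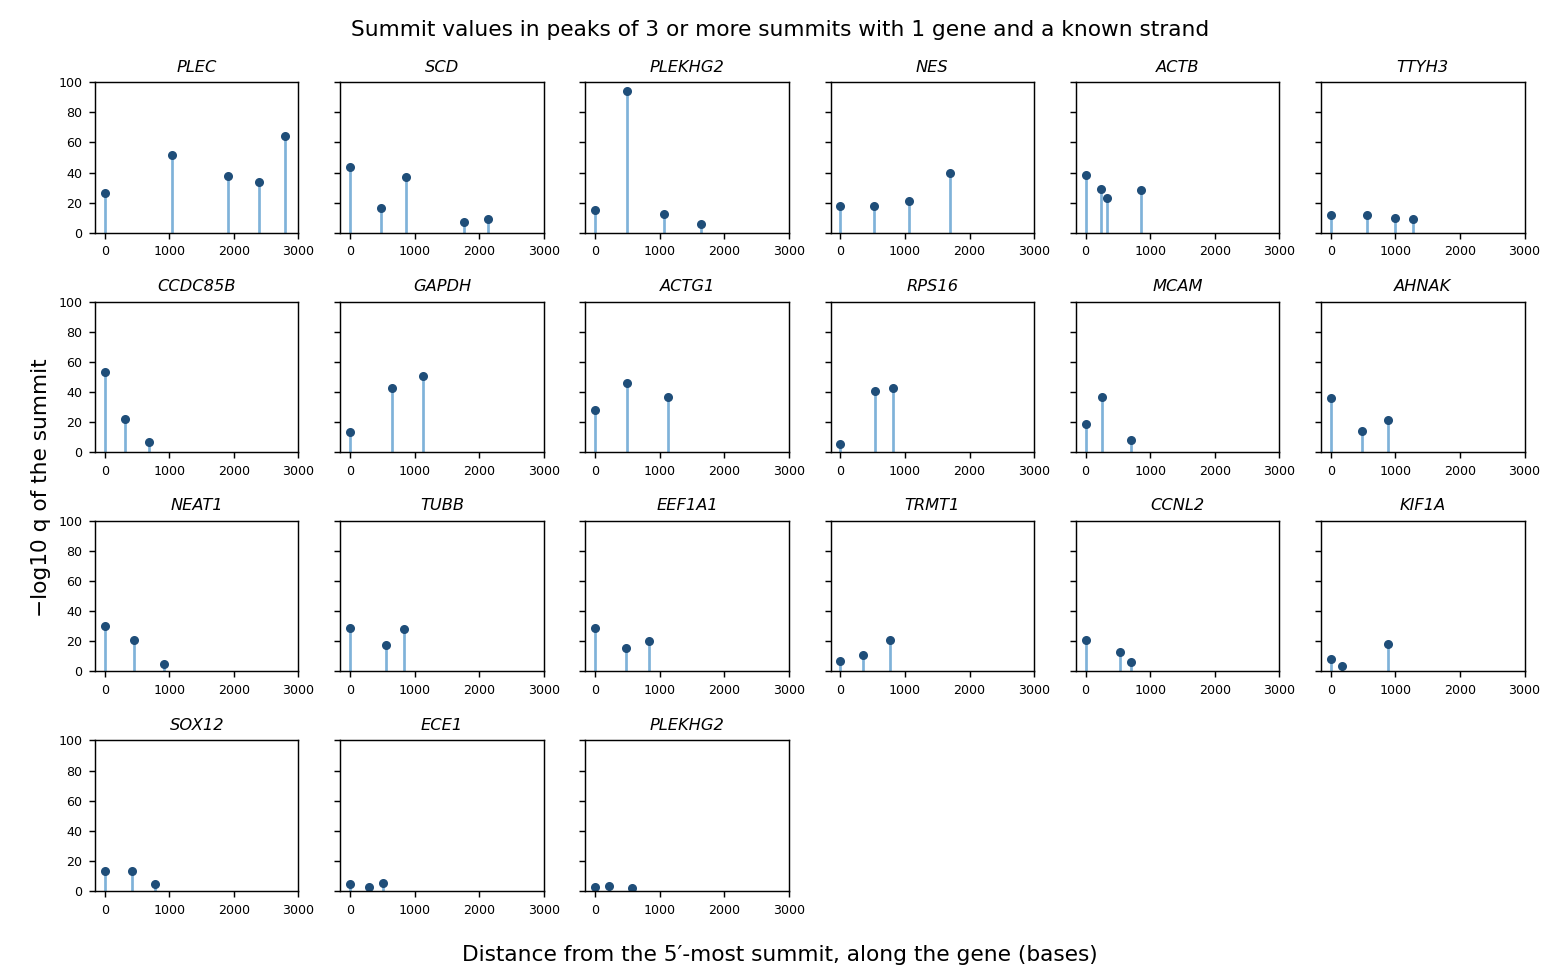
Each panel shows 1 peak of 3 or more summits whose summits all lie in the same single gene with a known strand; the horizontal axis is the distance in bases from the 5′-most summit along the gene, the vertical axis the −log10 q of each summit (dots). The 21 peaks show no common shape: 10 are highest at the first summit, 7 at the last and 4 in between.

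The 5′ and the 3′ summit were the stronger one about equally often. Among 134 peaks of 2 summits in a gene of known strand, the 3′ summit was the stronger in 69 (51.5%, 43.1 to 59.8). Of the 21 larger peaks, 10 were strongest at the 5′ summit, 7 at the 3′ summit and 4 between. For 540 pairs of neighbouring summits with different numbers in 1 gene and within 2000 bases, the 3′ one was stronger in 248 (45.9%, 41.8 to 50.1).

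Mitochondrial transcripts formed the longest peaks. Mitochondrial DNA is transcribed into long precursors that are cut into rRNAs, mRNAs and tRNAs, and 22 of its 23 summits carried a letter (95.7%, 79.0 to 99.2). A peak of 7 summits ran over 3201 bases from position 349 to 3550 and held the rRNAs MT-RNR1, with 96.4 and 91.8, and MT-RNR2, with 92.7, 110 and 121, between a first summit of 25.6 in no gene and a last of 53.0 in MT-ND1. A peak of 13 summits ran over 7639 bases from MT-CO2, with 76.8, to MT-CYB, with 34.5 and 32.0. Within it MT-ND4 had 49.2, 41.6 and 33.4, MT-ND5 31.6, 45.2 and 23.8, MT-CO3 42.9, MT-ATP8 37.6, MT-ND6 20.5 and MT-ND3 9.61. The remaining peak held 2 summits of MT-CO1, with 94.0 and 41.3. Among these lettered summits, those of the rRNAs were higher than those of every mRNA except the first of MT-CO1, and MT-ND3 was the lowest. Steps between mitochondrial summits were longer than elsewhere, with a median of 589 bases (432 to 757, n = 19 pairs) against 370 (354 to 385, n = 230). The list gives no strand, so MT-ND6, encoded on the other strand than its neighbours, cannot be told from RNA antisense to it.

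**Figure D3:**
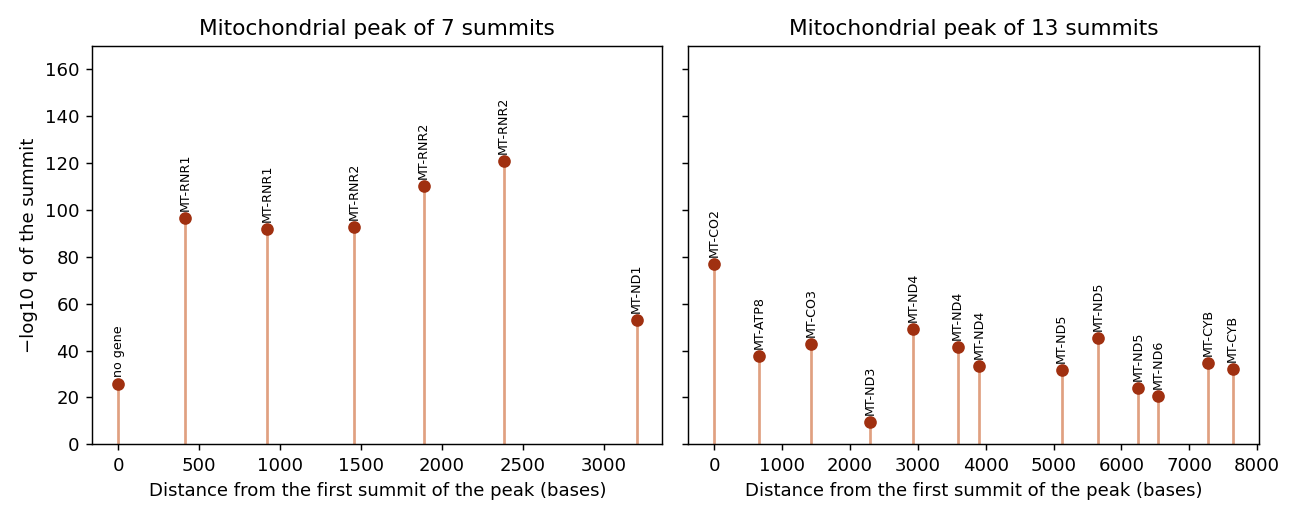
−log10 q of each summit (vertical axis) against its distance in bases from the first summit of the peak (horizontal axis), for the mitochondrial peaks of 7 and of 13 summits, with the gene at each summit. The 5 summits in rRNA genes lie between 91.8 and 121, above the 13 summits of the other peak, which lie between 9.61 and 76.8.

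A single RefSeq gene spanned 392 of the 449 summits, 48 lay in several gene spans and 9 in none. In 164 of the 200 peaks all summits fell in the same single gene, which gave 136 genes. Counting summits one by one gave 159 genes, 152 of them protein coding. Over all 1721 genes that were the only gene at a summit, 9.24% had a lettered one. Genes with a lettered summit had a median of 3 summits in all (3 to 4), against 1 in the 1562 others, a difference that the rule itself favours, since a lettered summit comes with others. Its part in the counts by gene list below was not tested. In 4 peaks the summits lay in different single genes: both long mitochondrial peaks, MRPS34 with EME2, and CRIM1-DT with CRIM1.

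Some genes held several such peaks. AKT2 had 4, with summits of 2.69 and 22.7, 1.35 and 4.19, 18.8 and 38.9, and 1.68 and 70.8, each stronger at the 3′ summit, besides the peak at its start, whose other summit had 8.92. PLEC had 4 with 11 summits in all, FLNA, the actin cross-linker filamin A, had 3, the semaphorin receptor PLXNB2 had 3, and TRMT1, which makes dimethylguanosine in tRNAs, had 3. The TRMT1 peaks had summits of 4.44 and 15.4 near the 5′ end, 6.75, 11.2 and 21.2 in the middle, and 15.3 and 2.43 near the 3′ end of the span. The FLNA peaks had 34.4 and 12.4, 30.8 and 12.9, and 7.93 and 2.07, each stronger at the 5′ summit. In PLEC all 4 peaks were strongest at the 3′ summit. VWA1, PLEKHG2, COL18A1, LAMA5, EEF2 and AGRN had 2 each, and 21 genes had 2 or more.

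Cytoskeletal genes made up the largest named group. Of 37 genes of the cytoskeleton list with a summit, 17 had a lettered one (45.9%), where the share over all genes with a summit was 9.24%. They include PLEC, the myosin heavy chain MYH9 (36.4 and 48.1), the myosin light chain MYL6 (30.1 and 47.3), ACTG1, the actinin ACTN4 (14.4 and 42.9), the lamin LMNA (30.6 and 9.34) and the actin bundler FSCN1 (27.7 and 1.82). Of the mitochondrial transcripts 12 of 13 had one. In the matrix and adhesion list it was 4 of 18 (22.2%): COL18A1, the laminins LAMA5 (7.93 and 48.1 in its stronger peak) and LAMB2 (26.6 and 22.6), and the proteoglycan agrin, AGRN (11.99 and 42.9 in its stronger peak).

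Among the other lists with 5 or more genes with a summit, the share ran from 0 to 17.6%. Over all genes with a summit it was 9.24%, and the counts per list are small. Of 17 translation factors with a summit, 3 had a lettered one (17.6%): EEF2 (47.6 and 45.2 in its stronger peak), EIF5A (30.1 and 14.96) and EEF1A1. Of 38 cytosolic ribosomal protein genes it was 3 (7.89%), RPS16, RPS6 (35.4 and 15.6) and RPL28 (11.4 and 10.4), and of 28 splicing genes 1 (3.57%), SF3B2 (8.52 and 8.39). Glycolysis had 2 of 12, ENO1 and GAPDH, chaperones 2 of 22, HSP90AB1 and HYOU1, lysosomal and secretory genes 3 of 18, PSAP, LAMP1 and CTSA, and nuclear oxidative phosphorylation 1 of 6, ATP5F1B. The cancer gene list had 0 of 5, and NES was the only gene with a summit in the list of m1G enzymes and study genes, TRMT5 having none. Of 16 markers of immune, acinar, islet, endothelial and stromal cells, 0 had any summit. The share of all annotated genes with a summit is not given here, so this is a count only. Of the 3 long non-coding RNAs with a summit as the only gene, of 14 listed, 1 had a lettered one, NEAT1 (33.3%), and H19 and MALAT1 had them where another gene overlaps.

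After the mitochondrial peak of 7 summits, the strongest peak without 1 single gene lay in H19, an imprinted non-coding RNA, where the span of MRPL23 overlaps. In order of rising coordinate, which also holds for the next peaks, its summits had 38.9, 67.3 and 107, and a second peak of 15.6 and 12.01 lay beside it. A peak in the overlap of PAF1 and SAMD4B had 84.3 and 47.7. A peak with summits in CRIM1-DT and CRIM1 had 13.1 and 58.0. Both MALAT1 peaks, where the span of TALAM1 overlaps, had values up to 26.2.

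Along the gene, lettered summits lay towards the 3′ end. Their median position was 78.3% of the span (71.7 to 81.5, n = 356 with a known strand), against 62.8% (60.7 to 65.1, n = 2626) for summits with a number of their own. In the last 20% of the span lay 167 of 356 (46.9%, 41.8 to 52.1), where the share over all summits was 35.1%, and in the first 20% 56 (15.7%, 12.3 to 19.9), where it was 20.8%. The shares differed with gene length. In spans up to 10000 bases the last 20% of the span held 25 of 115 lettered summits (21.7%, 15.2 to 30.1) and 129 of 606 of the others (21.3%, 18.2 to 24.7). In longer spans it held 142 of 241 (58.9%, 52.6 to 64.9) and 750 of 2020 (37.1%, 35.0 to 39.3). The larger share in the last 20% thus appeared in long spans. The median position was higher for lettered summits in both classes, at 59.7% (54.6 to 67.5) against 50.2% (44.9 to 54.1) in spans up to 10000 bases and 86.2% (81.5 to 89.0) against 67.2% (64.95 to 69.8) in longer ones. Spans include introns, and genes with a lettered summit were shorter, with a median span of 13187 bases (159 genes) against 20690 (1562 genes). Of the 159 genes, 12 are mitochondrial and short, and the median was not computed without them.

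**Figure D4:**
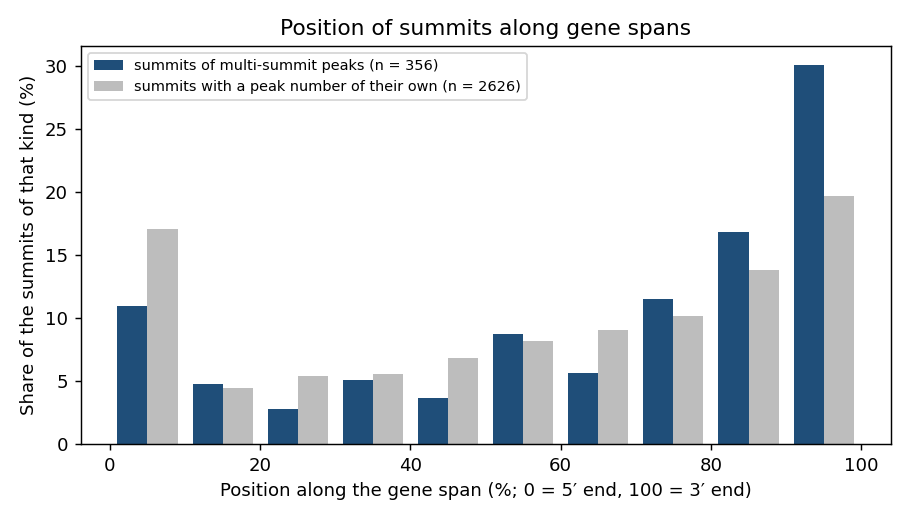
Share of summits (vertical axis, percent of the summits of that kind) in steps of 10% of the gene span from the 5′ end at 0 to the 3′ end at 100 (horizontal axis), for lettered summits (dark, n = 356) and summits with a number of their own (grey, n = 2626). The last step holds 30.1% of the lettered summits and 19.6% of the others, the first 10.96% and 17.0%.

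Examples at the 3′ end of long genes were PSAP (96.7 to 99.0% of the span), FADS2 (96.5 to 98.9%), SLC7A5 (96.0 to 98.0%), ACTN4 (96.9 to 97.7%) and MYH9 (92.5 to 92.8%). AHNAK (up to 25.8%) lay in the 5′ part of its span. All summits with AHNAK as the only gene lay between 9.41 and 26.3% of that span. The place of its peak in the transcript can therefore not be read from the span. The peaks of FMNL2, NEAT1 (0.616 to 4.64%) and HYOU1 (7.37 to 9.97%) lay near the start of the span.

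The summits as a whole were displaced towards the 5′ side of genes, which limits how finely any position above can be read. Of 2982 summits with a known strand, the one nearest to a 3′ end was 211 bases from it. Fewer than 250 bases from the 3′ end lay 2 of 356 lettered summits and 8 of 2626 others, whereas 9 and 268 lay as near to the 5′ end. Of 221 summits with a number of their own and in no gene, 122 lay up to 250 bases before the start of a protein-coding gene (55.2%, 48.6 to 61.6) and 2 as near behind an end. For the 9 lettered summits in no gene these numbers were 4 and 0.

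The same displacement appeared against the MetDiff list, which gives 9585 peaks as exon blocks, each with a fold that carries no label and is taken here as IP over input. Where the midpoint of the nearest block was within 500 bases, the median offset of lettered summits was -88.8 bases (-101 to -73.5, n = 264; negative is the 5′ side), and 190 of 264 lay on that side (72.0%, 66.3 to 77.0). For the others it was -108 bases (-110 to -105, n = 1893), with 87.1% on that side. On the plus and the minus strand the medians of the lettered summits were -94 and -88.5 bases, so the displacement followed the direction of the gene and not the genome. The cause was not tested.

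**Figure D5:**
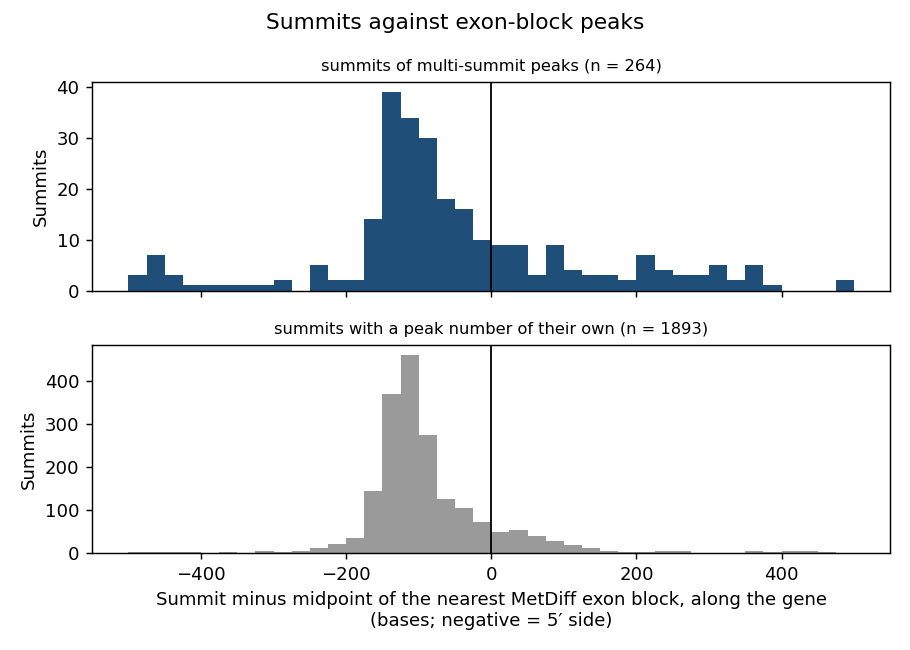
Number of summits (vertical axis) by the distance in bases from the midpoint of the nearest MetDiff exon block, counted along the gene so that negative values are on the 5′ side (horizontal axis, steps of 25, up to 500 bases), for 264 lettered summits (top) and 1893 others (bottom). Both sets have their main maximum on the 5′ side of the midpoint, and the lettered summits have a broader tail on the 3′ side.

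Inside a MetDiff exon block lay 80 of 449 lettered summits (17.8%, 14.6 to 21.6), close to the 17.7% over all summits. Within 150 bases of a block lay 249 (55.5%, 50.8 to 59.99), where the share over all summits was 63.6%. Of the 200 peaks, 132 had a MetDiff block between or at their outer summits and 68 had none, and 42 touched several MetDiff peaks. In 67 peaks at least 1 summit lay in a block, and in 12 all of them did. Of 249 neighbouring pairs, 15 lay between the outer ends of the same MetDiff peak (6.02%, 3.68 to 9.70), and the share was 20.5% where summits within 150 bases of its blocks were counted. No such counts of peaks or pairs are given for peaks of 1 summit or for neighbours with different numbers. Whether these counts are high or low can therefore not be said.

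The deposited MetDiff fold at lettered summits inside a block had a median of 5.12 (4.20 to 6.15, n = 80), against 6.69 (6.22 to 7.13, n = 575) for the other summits. The highest fold beside a lettered peak was 43.5, in the polarity gene SCRIB, where the summits had 13.3 and 29.8. Among genes named above, folds over 12 were 30.9 at the peak of RAB24 and PRELID1, 14.9 in SF3B2, 14.6 in LAMA5, 14.5 in MGAT2, 13.2 in VWA1, 12.4 in AGRN and 12.2 in PLEKHG2. The VWA1 value belongs to its weaker peak, with summits of 11.4 and 9.86, and at its stronger peak the highest fold was 7.02. No MetDiff block touched the peaks of PLEC, ACTB, ACTG1, GAPDH, EEF1A1 and TUBB. The 2 lists may rest on the same libraries, so neither is independent support for the other.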

How the data were processed

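Anti-m1G IP and input RNA of PANC-1 cells was sequenced in 12 libraries. Per the submitters' processing notes, tools included STAR 2.7.1, MACS2 2.2.5 and the GRCh38 build, with no role or order. Which libraries entered the peak calls, and whether they were pooled, is not stated in these sources. The deposited MACS2 list gives summits with a −log10 value, read as a q-value because the smallest, 1.35, lies just above −log10 of 0.05. The deposited MetDiff list gives a p-value, an FDR on a log10 scale and an unlabelled ratio taken as fold of IP over input. No header states these units.

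Coordinates count from 1. Summits were grouped by peak number and named by the RefSeq gene span (GRCh38.p14) that alone contained them. Strand came from the RefSeq start table or, failing that, from MetDiff peaks inside the span; both sources gave the same strand for 1140 of 1151 genes. Intervals of shares are 95% Wilson intervals, and those of medians come from binomial order statistics. Both count each summit, pair, peak or gene as an independent item, although summits of the same peak or gene are not independent. They may therefore be too narrow, and they say nothing of the spread between replicates. Python 3.11.15, pandas 2.3.3 and scipy 1.17.1 were used, and the code was tested on simulated data.

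Named genes are, for peaks in 1 gene, the 15 with the most summits, the 15 with the highest −log10 q, the 5 with the widest and the 5 with the narrowest distances, the 10 with the most such peaks, up to 4 members of each of 14 lists, NES and TRMT5, and the 5 strongest peaks in several genes or none. Others were named after their values were seen, and 1 gene of the widest distances is not reported here. The members and lists were chosen with earlier results of these data known.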

Additional observations from a re-analysis of the deposited data

How the results depend on the processing

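Restricting the list to stronger summits changed the size of the set. With −log10 q of at least 10, 91 peaks and 213 summits remained with several summits, and the share among all summits was 8.44% (10.0% with at least 5). The median distance was 461 bases where both summits had at least 10, and the median position was 59.7% in spans up to 10000 bases. The share of summits at a MetDiff block was 33.6% within 50 bases and 55.5% within 150 bases. The share of pairs in the same MetDiff peak was 1.61% inside its blocks and 20.5% within 150 bases of them. The other 15 settings stayed within the interval of the main value, or within 1.5 times a count. Of these, 4 for distance, position and overlap were added after seeing the data, as were the gene ends, the offset and the span classes. No paired analysis was possible because the lists hold no value per library, and for the same reason no replicate could be left out. Depth is unknown, so weak second summits may be missing where reads were few.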

Other observations

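Lettered summits were concentrated in a few regions, chosen here after their values were seen. In steps of 5 Mb, chromosome 19 from 35 to 40 Mb held 27 of them in 11 peaks, 26.7% (19.1 to 36.1) of the 101 summits there. This region held 6.01% of all lettered summits, 2.73% of all summits, 1.16% of MetDiff peaks and 0.753% of protein-coding genes. Its peaks lay in ACTN4, ECH1, MED29, PLEKHG2, RPS16, SUPT5H and PSMC4 and in the overlap of PAF1 with SAMD4B. PAF1 and SUPT5H encode elongation factors of RNA polymerase II, MED29 a Mediator subunit and PSMC4 a proteasome ATPase. The next 5 Mb, with AKT2, MAP3K10 and APOE, held 16 of 48 summits (33.3%, 21.7 to 47.5). As background, PANC-1 is known for extra copies of a segment of the long arm of chromosome 19 that holds AKT2 and PAF1; copy number was not analysed here.

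Another region with many lettered summits was chromosome 8 from 140 to 145 Mb, with 21 of 89 (23.6%), among them PLEC, SCRIB and PUF60. Chromosome 11 from 65 to 70 Mb had 20 of 79 (25.3%), among them NEAT1, MALAT1, CCDC85B and SF3B2. Over all summits the share was 12.1%. On chromosome 18, 0 of 25 summits carried a letter (upper Wilson limit 13.3%), an interval that includes the share over all summits. The fatty acid synthase gene FASN, named after its values were seen, had peaks with 41.0 and 24.3 and with 21.7 and 7.72. Near annotated miRNA hairpins lay 2 lettered summits, 12 bases from MIR6805 in RPL28 (−log10 q 10.4) and 67 bases from MIR6733 in EBNA1BP2 (8.63). No such count is given for the other summits.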
